A study of Mus musculus with 15 samples.

Results

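The 9 haematopoietic transcription factor genes described here were followed through 15 RNA libraries of a mouse cell line: Gata1, Gata2, Gfi1b, Mitf, Zfpm1, Tal1, Lmo2, Nfe2 and Klf1. They are GATA factors and proteins known to act with them, taken by name with earlier results of these data known, and all 9 were found among the 52327 named entries of the count table and passed the filter on low counts, which 13123 genes passed. Gata1 and Gata2 rose in cells with either leukaemia allele and stood highest in cells with both. Gfi1b was highest with the fusion alone, Lmo2 was lowest with both alleles, and Klf1 was highest with the mutant receptor alone.

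The line is labelled HoxB with cell type Blood, and 5 groups of 3 replicates were sequenced as strand-specific mRNA libraries. EMPTY cells carried control vectors. RUNX1-ETO_ONLY cells carried RUNX1-ETO, the fusion transcription factor of core-binding-factor leukaemia that joins the DNA-binding part of RUNX1 to the corepressor ETO (the product of RUNX1T1). CSF3R_ONLY cells carried CSF3R-T618I, a mutant of the G-CSF receptor known to signal without its ligand. RUNX1-ETO_FIRST and CSF3R_FIRST cells both carried the 2 alleles and differed in which was introduced first. The labels give no sex or age, no promoter for the introduced alleles, no statement of whether a group was 1 clone, and none of whether replicates were separate cultures, so p-values measure the spread between these libraries, which may be technical.

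GATA1 and GATA2 bind the sequence GATA through zinc fingers. GATA2 acts in stem and progenitor cells and in mast cells, and GATA1 in red cells, megakaryocytes, mast cells, basophils and eosinophils. FOG1, the product of Zfpm1, binds the GATA1 finger, and TAL1 and LMO2 join GATA factors and LDB1 in a complex on erythroid and megakaryocytic genes. GFI1B is a repressor that works through the LSD1 corepressor, NF-E2 (Nfe2) is the megakaryocytic and erythroid partner of small MAF proteins, KLF1 activates globin genes, and MITF acts with GATA2 in mast cells.

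Library totals ran from 17007437 to 18178292 counts, and 16262 to 17242 genes had at least 1 count. Runx1t1, the mouse counterpart of the ETO part of the fusion, had no counts in the 6 libraries without the fusion and 6786 to 13499 in the 9 with it. Csf3r lay between 617 and 626 CPM (read counts relative to the library size after TMM scaling) in CSF3R_ONLY and between 366 and 441 CPM in both double groups, against 373 to 465 CPM in EMPTY, so its counts did not separate libraries by the receptor allele. Blood cell markers (Ptprc, Coro1a, Cd53, Laptm5, Vav1) were counted in every library, and lymphoid and stromal marker sums stayed at or below 1.70 CPM. In 4 libraries the deviation of a gene from its group mean correlated with exon length over genes at r of -0.275 or lower, so long transcripts were low there: replicate 3 of EMPTY (r = -0.485), of RUNX1-ETO_ONLY (-0.332) and of CSF3R_FIRST (-0.286), and replicate 1 of RUNX1-ETO_FIRST (-0.275). The other 11 libraries lay between -0.057 and 0.367. Member calls that changed without those 4 libraries are given both ways.

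In the GENCODE M21 annotation of mm10, Gata1 lies on the minus strand at chrX:7959260-7978071, Gata2 on the plus strand at chr6:88193891-88207032, Gfi1b on the minus strand at chr2:28609450-28621982 and Tal1 on the plus strand at chr4:115056426-115071755. The other members lie at chr6:97807052-98021349 (Mitf, plus strand), chr8:122282141-122337251 (Zfpm1, plus), chr2:103957986-103981878 (Lmo2, plus), chr15:103248212-103258403 (Nfe2, minus) and chr8:84901928-84905291 (Klf1, plus). Zfpm1 overlaps Gm20388 on the same strand, and how reads of both were counted is not stated in the labels. Lmo2 and Mitf overlap genes on the opposite strand, 4931422A03Rik with at most 5 counts in a library and Gm15531 with 0.

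The 3 members with the largest changes, Gata1, Gata2 and Gfi1b, and their partner Tal1 are shown with the 250 bases before their RefSeq start (GRCm38.p6), because GATA factors are known to act on each other's genes. Klf1, which changed more than Tal1, is not printed because its window runs into the annotated gene. GATA on either strand (GATA or TATC) is in capitals. The Gata1 window, chrX:7967911-7968160, lies within an intron of a longer GENCODE transcript of Gata1. The other windows are chr6:88193641-88193890 for the upstream start of Gata2, chr2:28621983-28622232 for Gfi1b and chr4:115056176-115056425 for the upstream start of Tal1. Each is read 5′ to 3′ on the strand of its gene.
Gata1: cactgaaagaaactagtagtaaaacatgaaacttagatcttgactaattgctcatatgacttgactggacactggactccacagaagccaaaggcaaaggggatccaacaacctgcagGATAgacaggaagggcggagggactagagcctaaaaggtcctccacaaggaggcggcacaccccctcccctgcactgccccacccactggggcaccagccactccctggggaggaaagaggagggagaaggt
Gata2: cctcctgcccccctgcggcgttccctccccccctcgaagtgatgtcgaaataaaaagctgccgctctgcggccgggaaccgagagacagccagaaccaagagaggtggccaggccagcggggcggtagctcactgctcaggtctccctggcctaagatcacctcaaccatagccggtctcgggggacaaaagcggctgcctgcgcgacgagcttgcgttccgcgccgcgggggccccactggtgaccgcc
Gfi1b: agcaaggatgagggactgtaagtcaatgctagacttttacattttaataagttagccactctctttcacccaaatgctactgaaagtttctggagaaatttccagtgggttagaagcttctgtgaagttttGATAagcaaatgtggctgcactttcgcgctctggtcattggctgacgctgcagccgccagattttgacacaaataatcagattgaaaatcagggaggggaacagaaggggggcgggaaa
Tal1: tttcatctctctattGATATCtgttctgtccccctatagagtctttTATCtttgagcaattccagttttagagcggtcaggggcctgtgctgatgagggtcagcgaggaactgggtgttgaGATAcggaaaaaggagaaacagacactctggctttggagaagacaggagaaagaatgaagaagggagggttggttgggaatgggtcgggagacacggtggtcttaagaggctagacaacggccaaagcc

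The Gata1 window held 1 GATA, at position -132 from the start, and the Gfi1b window held 1, at -119, within TGATAA. The Tal1 window held 4 and this Gata2 window none. The Klf1 window held 2 and 1 TGATAA. RefSeq gave 11 starts for 7 of the members, and 7 of the 11 held GATA on either strand, against 53.6% of all 32817 promoters of that length. TGATAA on either strand stood in 4 of the 11, against 7.95% of all, and AGATAA in 1, against 9.99%. Starts of the same gene are counted separately here. By gene, GATA stood in 5 of the 7, TGATAA in 3 and AGATAA in 1. CACCC on either strand, which KLF1 is known to bind, stood in 7 of the 11 (52% of all), TGTGGT on either strand, a RUNX1 sequence, in 2 (14%), CANNTG, the sequence bound by TAL1 with its partners, in 4 (66.2%), and TTCNNNGAA, a STAT sequence, in 1 (7.01%). The last pair read the same on both strands, and TGATAA and AGATAA are also counted as GATA. A match describes these letters in this window only.

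Of the GATA factors, Gata1 was nearly silent in the controls. Its CPM values were 2.70, 2.94 and 4.68 in EMPTY, 40.8, 40.0 and 45.5 in RUNX1-ETO_ONLY and 34.8, 35.0 and 34.3 in CSF3R_ONLY. With both alleles they were 70.7, 63.9 and 61.6 when the fusion came first and 137, 127 and 146 when the receptor came first. No 2 groups overlapped, and the order from the top was CSF3R_FIRST, RUNX1-ETO_FIRST, RUNX1-ETO_ONLY, CSF3R_ONLY and EMPTY. Against EMPTY the fusion alone raised Gata1 12.3-fold (log2 change 3.62 ± 0.15 SE, adjusted p = 1.84e-11 by the quasi-likelihood test of edgeR with Benjamini-Hochberg adjustment over all tested genes, which is the test behind each adjusted p given here unless another is named). The receptor alone raised it 10.1-fold (3.34 ± 0.15, adjusted p = 6.28e-11), the fusion-first cells 19.1-fold (4.25 ± 0.15, adjusted p = 1.71e-12) and the receptor-first cells 39.8-fold (5.32 ± 0.15, adjusted p = 9.83e-14).

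Gata2 was already present in the control cells. EMPTY libraries held 135, 146 and 126 CPM, RUNX1-ETO_ONLY 624, 595 and 550, and CSF3R_ONLY 483, 523 and 485. The double groups held 1183, 1192 and 1268 CPM with the fusion first and 1522, 1467 and 1307 with the receptor first. Here too no neighbouring groups overlapped, in the same order as for Gata1. The rises over EMPTY were 4.35-fold with the fusion alone (log2 2.12 ± 0.09, adjusted p = 1.98e-11), 3.66-fold with the receptor alone (1.87 ± 0.09, adjusted p = 9.93e-11), 8.95-fold with the fusion first (3.16 ± 0.09, adjusted p = 1.62e-13) and 10.6-fold with the receptor first (3.40 ± 0.09, adjusted p = 5.26e-14). These are bulk libraries, in which a larger share of Gata2-expressing cells and more Gata2 RNA per cell cannot be told apart.

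**Figure D1:**
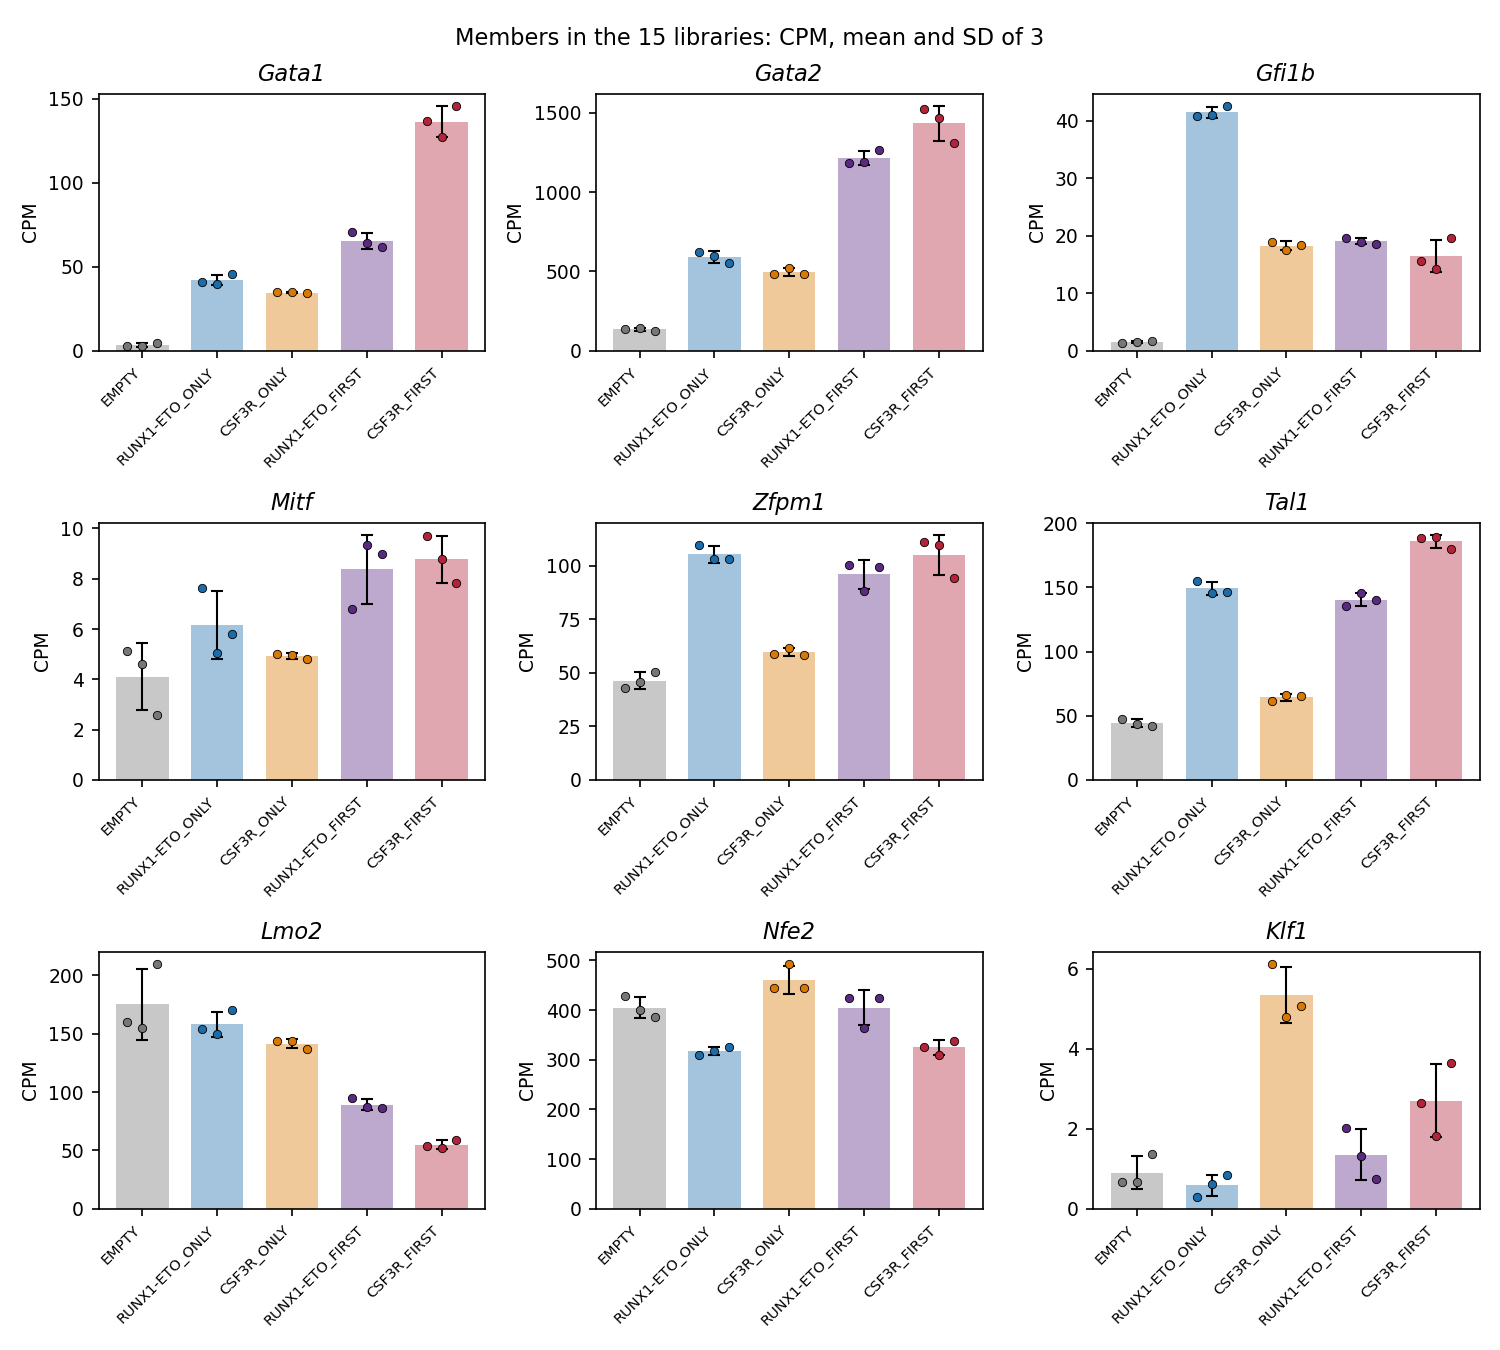
CPM of each of the 9 genes in the 15 libraries, 1 panel per gene with its own axis from 0; points are libraries, bars are means of 3 and whiskers are SD. Gata1 and Gata2 stand highest in CSF3R_FIRST, Gfi1b in RUNX1-ETO_ONLY, Klf1 in CSF3R_ONLY and Lmo2 in EMPTY.

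The balance of the 2 GATA factors within a library does not depend on library scaling. EMPTY libraries held 50.1, 49.5 and 27.0 Gata2 reads per Gata1 read. The ratio was 12.1 to 15.3 in RUNX1-ETO_ONLY, 13.9 to 14.9 in CSF3R_ONLY, 16.7 to 20.6 in the fusion-first group and 8.97 to 11.5 in CSF3R_FIRST. Every group with an allele lay below every EMPTY library, and the receptor-first cells lay below the fusion-first cells. All 7 pairs of groups compared did not overlap and gave p = 0.1 in the two-sided exact permutation test on the log2 ratio (n = 3 against 3, adjusted p = 0.1 over the 7 pairs), which is the smallest p this design allows. In EMPTY, RUNX1-ETO_ONLY, RUNX1-ETO_FIRST and CSF3R_FIRST the lowest value (27.0, 12.1, 16.7 and 8.97) came from the library of the group that was low in long transcripts. The exons of Gata2 (5398 bases) are longer than those of Gata1 (2438 bases).

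**Figure D2:**
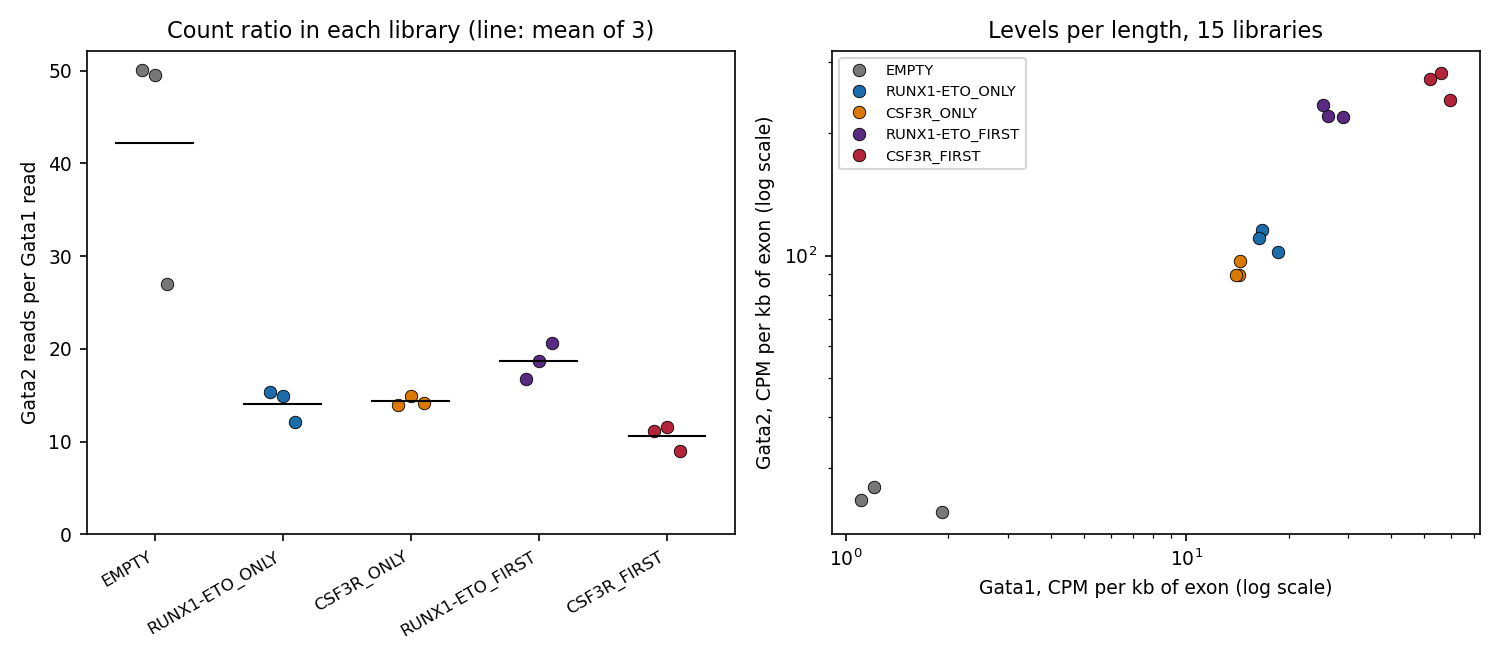
Left, Gata2 reads per Gata1 read in each library with the mean of 3 as a line; right, CPM per kilobase of exon of both genes on log axes. EMPTY libraries sit at 27.0 to 50.1 reads on the left and at the lower left on the right, and CSF3R_FIRST libraries at 8.97 to 11.5 reads and at the upper right.

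Gfi1b followed another pattern. EMPTY libraries held 1.38, 1.50 and 1.68 CPM, RUNX1-ETO_ONLY 40.9, 41.0 and 42.7, and CSF3R_ONLY 19.0, 17.5 and 18.3. RUNX1-ETO_FIRST held 19.7, 18.9 and 18.6 CPM and CSF3R_FIRST 15.6, 14.2 and 19.6. The fusion-alone libraries stood above all others, EMPTY stood below all others, and the CSF3R_ONLY, RUNX1-ETO_FIRST and CSF3R_FIRST libraries overlapped as neighbours in order. The rise over EMPTY was 27.3-fold with the fusion alone (log2 4.77 ± 0.14, adjusted p = 4.79e-13), 12.0-fold with the receptor alone (3.59 ± 0.14, adjusted p = 1.76e-11), 12.5-fold with the fusion first (3.65 ± 0.14, adjusted p = 5.72e-12) and 10.8-fold with the receptor first (3.44 ± 0.14, adjusted p = 9.02e-12). In fusion-first cells Gfi1b lay 2.18-fold below the fusion alone (log2 change -1.12 ± 0.10, adjusted p = 5.62e-07). Between receptor-first cells and the receptor alone the log2 difference was -0.15 ± 0.11 (adjusted p = 0.271), and without CSF3R_FIRST replicate 3 it was -0.26 (adjusted p = 0.0400). Without all 4 libraries low in long transcripts it was -0.27 (adjusted p = 0.0170).

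Among the cofactors, Zfpm1 (FOG1) and Tal1 moved with the fusion more than with the receptor. Zfpm1 stood at 42.7, 45.6 and 50.4 CPM in EMPTY, 58.6, 61.7 and 58.4 in CSF3R_ONLY, 110, 103 and 103 in RUNX1-ETO_ONLY, 100, 88.2 and 99.4 in RUNX1-ETO_FIRST, and 111, 110 and 94.0 in CSF3R_FIRST. CSF3R_FIRST overlapped both other fusion groups, RUNX1-ETO_FIRST lay just below RUNX1-ETO_ONLY (log2 -0.13 ± 0.08, adjusted p = 0.282), and all 3 stood above CSF3R_ONLY, which stood above EMPTY. Zfpm1 rose 2.28-fold with the fusion alone (log2 1.19 ± 0.09, adjusted p = 1.96e-08) and 1.29-fold with the receptor alone (0.37 ± 0.09, adjusted p = 0.00382). With both alleles it rose 2.08-fold and 2.27-fold over EMPTY, fusion first and receptor first (adjusted p = 5.78e-08 and 1.14e-08).

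Tal1 measured 47.7, 43.7 and 41.9 CPM in EMPTY, 61.4, 66.2 and 65.7 in CSF3R_ONLY and 155, 146 and 146 in RUNX1-ETO_ONLY. It measured 136, 145 and 140 CPM in RUNX1-ETO_FIRST and 188, 189 and 180 in CSF3R_FIRST. The receptor-first libraries were highest. RUNX1-ETO_FIRST lay just below RUNX1-ETO_ONLY without overlap, by 0.09 ± 0.07 on the log2 scale, a difference that did not pass the test (adjusted p = 0.379). Over EMPTY, Tal1 rose 3.36-fold with the fusion alone (log2 1.75 ± 0.07, adjusted p = 1.55e-11), 1.45-fold with the receptor alone (0.54 ± 0.07, adjusted p = 1.53e-05), 3.16-fold with the fusion first (adjusted p = 1.75e-11) and 4.19-fold with the receptor first (2.07 ± 0.07, adjusted p = 9.46e-13).

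Lmo2, the bridging protein of the TAL1 complex, went the other way. EMPTY libraries held 160, 155 and 210 CPM, RUNX1-ETO_ONLY 154, 150 and 170, and CSF3R_ONLY 144, 144 and 137. The double groups stood below all of these, with 94.5, 86.9 and 86.2 CPM fusion first and 53.7, 51.8 and 59.3 receptor first. Lmo2 fell 1.96-fold in fusion-first cells (log2 change -0.97 ± 0.10, adjusted p = 1.17e-06) and 3.19-fold in receptor-first cells (-1.67 ± 0.11, adjusted p = 1.82e-09). With the fusion alone the log2 change was -0.15 ± 0.10 (adjusted p = 0.271). With the receptor alone it was -0.31 ± 0.10 (adjusted p = 0.0291), a call that was lost without any 1 of the CSF3R_ONLY libraries (adjusted p 0.0637 to 0.0993) and without EMPTY replicate 3, the highest library, where the change was -0.18 (adjusted p = 0.0668).

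The NF-E2 gene Nfe2 was abundant in every group and moved little. It stood at 428, 400 and 387 CPM in EMPTY, 310, 318 and 326 in RUNX1-ETO_ONLY, 445, 493 and 444 in CSF3R_ONLY, 425, 364 and 424 in RUNX1-ETO_FIRST, and 326, 310 and 338 in CSF3R_FIRST. The fusion-alone and receptor-first groups overlapped each other and lay below the remaining groups. Nfe2 fell 1.27-fold with the fusion alone (log2 -0.35 ± 0.08, adjusted p = 0.00213) and 1.25-fold in receptor-first cells (-0.32 ± 0.08, adjusted p = 0.00273). The difference from EMPTY was 0.19 ± 0.08 with the receptor alone (adjusted p = 0.0807) and 0.00 ± 0.08 with the fusion first (adjusted p = 0.988).

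Klf1 and Mitf were the members with few counts. Klf1 had 12, 12 and 23 counts in EMPTY, 6, 12 and 16 in RUNX1-ETO_ONLY, 105, 83 and 88 in CSF3R_ONLY, 36, 24 and 13 in RUNX1-ETO_FIRST, and 44, 31 and 60 in CSF3R_FIRST. CSF3R_ONLY stood above all other libraries, and each of the other groups overlapped its neighbour in the order of means. The receptor alone raised Klf1 5.93-fold (log2 2.57 ± 0.37, adjusted p = 5.47e-05) and the receptor-first cells 3.01-fold (1.59 ± 0.39, adjusted p = 0.00291). The log2 difference from EMPTY was -0.61 ± 0.48 with the fusion alone and 0.60 ± 0.42 with the fusion first, and neither passed the test (adjusted p = 0.349 and 0.275).

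Mitf, the leucine-zipper factor of mast cells and melanocytes, had 93, 83 and 43 counts in EMPTY, 150, 98 and 111 in RUNX1-ETO_ONLY, 86, 86 and 83 in CSF3R_ONLY, 121, 170 and 159 in RUNX1-ETO_FIRST, and 161, 149 and 129 in CSF3R_FIRST. Both double groups lay above EMPTY, by 2.03-fold with the fusion first (adjusted p = 0.00117) and 2.13-fold with the receptor first (adjusted p = 0.000522). With the fusion alone the log2 change was 0.58 ± 0.22 (adjusted p = 0.0475), and the libraries overlapped those of EMPTY. That call was lost without EMPTY replicate 2 (adjusted p = 0.0504), EMPTY replicate 3 (log2 0.33, adjusted p = 0.186), RUNX1-ETO_ONLY replicate 1 (0.40, adjusted p = 0.219) or RUNX1-ETO_ONLY replicate 3 (adjusted p = 0.0633). It was also lost with the 4 libraries low in long transcripts left out (0.37, adjusted p = 0.0934), by limma-voom (adjusted p = 0.122), with only the groups compared (0.183), with DESeq2 size factors (0.0508) and with the stricter filter (0.0537). The receptor alone gave 0.26 ± 0.23 (adjusted p = 0.423), and -0.01 without EMPTY replicate 3.

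Levels between genes can be compared per kilobase of exon. In CPM per kilobase, Nfe2 was the most abundant of the 9 in EMPTY (136) and CSF3R_ONLY (154), while Gata2 was the most abundant in RUNX1-ETO_ONLY (109), RUNX1-ETO_FIRST (225) and CSF3R_FIRST (265). Lmo2 went from the second level of the 9 in EMPTY (80.9 CPM per kilobase) to the sixth in CSF3R_FIRST (25.4), and Gata1 from the sixth (1.41) to the third (56.0). Klf1 and Mitf held the bottom places in every group, at or below 3.49 CPM per kilobase.

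Counted together, 6 of the 9 members rose and 1 fell with the fusion alone, where 39% of all tested genes passed the test, 20.8% higher and 18.2% lower. With the receptor alone 6 rose and 1 fell (33.1% of all genes, 19.9% higher and 13.2% lower). With the fusion first 6 rose and 1 fell (44%, 23.7% higher and 20.2% lower), and with the receptor first 7 rose and 2 fell (53.5%, 26.8% higher and 26.7% lower). Gata1, Gata2, Gfi1b, Zfpm1 and Tal1 rose in all 4 comparisons. The median log2 change of the members was 1.19, 0.54, 1.06 and 1.59 in that order, against medians of all tested genes between -0.05 and 0.01. All 4 comparisons share the EMPTY libraries, so they are given side by side and not as independent evidence.

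**Figure D3:**
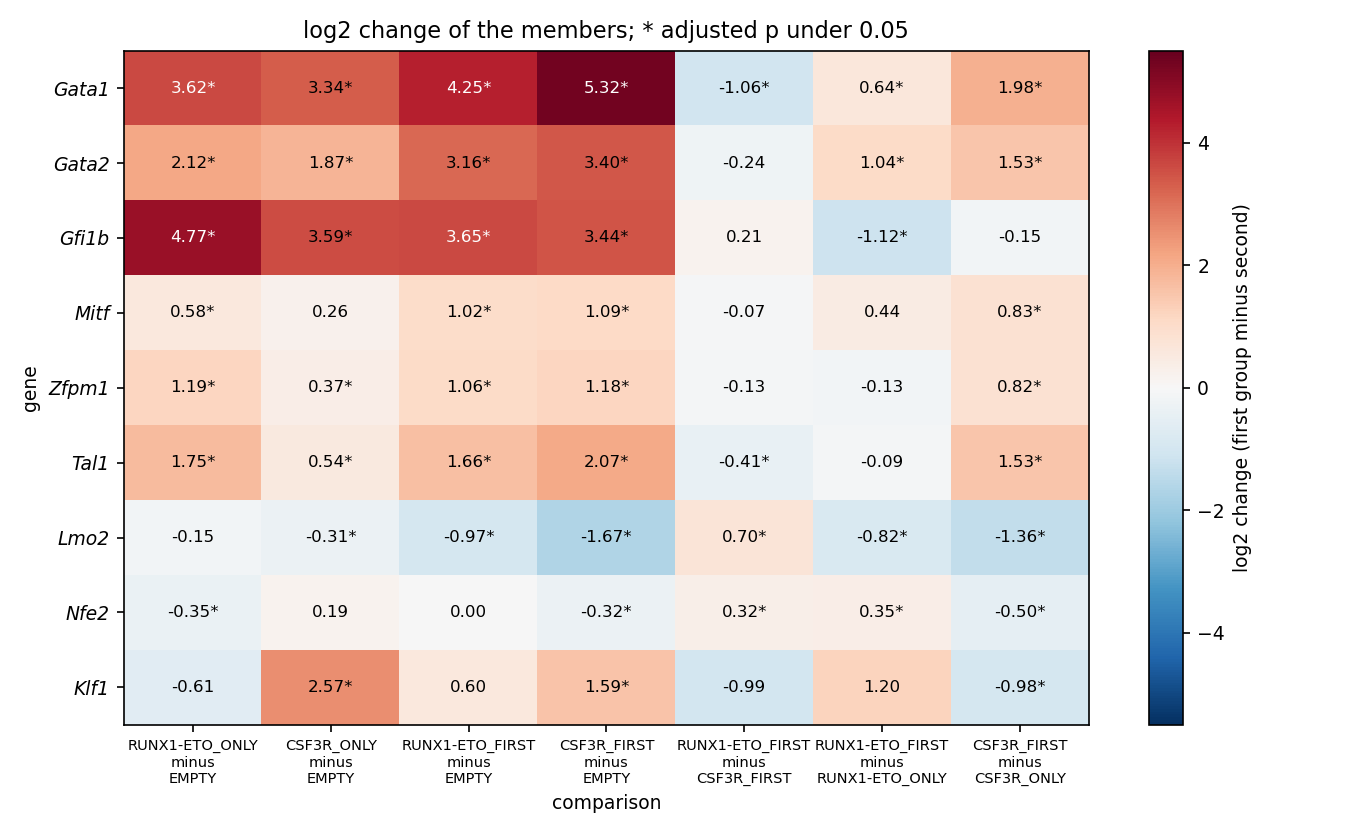
Fitted log2 changes of the 9 genes (rows) in the 7 pair comparisons (columns), coloured from blue (lower in the first group) to red (higher), with a star where the adjusted p was under 0.05. The 4 left columns are red for Gata1, Gata2 and Gfi1b, from 1.87 to 5.32, and Lmo2 turns blue in the double groups.

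The next question was whether these genes differed between the 2 orders of the alleles at the same labelled genotype. The double groups also differed in fusion reads. Runx1t1 lay between 381 and 564 CPM in RUNX1-ETO_FIRST and between 559 and 812 CPM in CSF3R_FIRST. Runx1 lay between 537 and 670 CPM and between 685 and 818 CPM. In all comparisons between the orders, order and fusion level cannot be told apart. Between RUNX1-ETO_FIRST and CSF3R_FIRST, 4 of the 9 members passed the test, 2 higher and 2 lower with the fusion first, where 18.3% of all tested genes did (7.22% higher and 11.1% lower). Gata1 was 2.09-fold lower with the fusion first (65.4 ± 4.76 against 136 ± 9.38 CPM, SD, n = 3 each, log2 -1.06 ± 0.12 SE, adjusted p = 1.19e-05), and Tal1 was 1.32-fold lower (log2 -0.41 ± 0.07, adjusted p = 0.000499). Lmo2 was 1.62-fold higher with the fusion first (89.2 ± 4.60 against 55.0 ± 3.88 CPM, log2 0.70 ± 0.10, adjusted p = 0.000216). Nfe2 was 1.24-fold higher (log2 0.32 ± 0.08, adjusted p = 0.00985), a call lost without CSF3R_FIRST replicate 2 (adjusted p = 0.0515) or RUNX1-ETO_FIRST replicate 3 (adjusted p = 0.0755).

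The other 5 members did not pass in the order comparison. Gata2 was lower with the fusion first without overlap (log2 -0.24 ± 0.08, adjusted p = 0.0575), and passed under 8 alternative settings, without CSF3R_FIRST replicate 3 among them (-0.33, adjusted p = 0.0215). Gfi1b gave 0.21 ± 0.10 (adjusted p = 0.192), and 0.33 without CSF3R_FIRST replicate 3 (adjusted p = 0.0307). Klf1 gave -0.99 ± 0.37 (adjusted p = 0.0766), and -1.39 without RUNX1-ETO_FIRST replicate 1 (adjusted p = 0.0315). Zfpm1 gave -0.13 ± 0.08 (adjusted p = 0.341) and Mitf -0.07 ± 0.20 (adjusted p = 0.861). With the 4 libraries low in long transcripts left out, 8 of the 9 passed, with Gata2 at -0.31 (adjusted p = 2.97e-05), Gfi1b at 0.30 (0.0225), Klf1 at -1.14 (0.00833) and Zfpm1 at -0.26 (0.00163). That setting leaves fewer libraries in both groups, and more of all tested genes passed there too, as given in the last section.

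Each double group was also compared with the cells that carried its first allele alone. Adding the receptor to fusion cells (RUNX1-ETO_FIRST against RUNX1-ETO_ONLY) changed 5 of the 9 members, 3 up and 2 down, against 26.3% of all tested genes (16% higher and 10.3% lower). Gata2 rose 2.06-fold (log2 1.04 ± 0.08, adjusted p = 1.43e-07), Gata1 rose 1.55-fold (0.64 ± 0.12, adjusted p = 0.000711) and Nfe2 rose 1.27-fold (0.35 ± 0.08, adjusted p = 0.00349). Gfi1b fell, as given above, and Lmo2 fell 1.77-fold (-0.82 ± 0.10, adjusted p = 1.85e-05). Klf1 gave 1.20 ± 0.45 (adjusted p = 0.0594), and passed without RUNX1-ETO_FIRST replicate 3 (1.50, adjusted p = 0.0244) or RUNX1-ETO_ONLY replicate 3 (1.54, adjusted p = 0.0455). Mitf gave 0.44 ± 0.21 (adjusted p = 0.136). With the 4 libraries low in long transcripts left out, 8 of the 9 passed, with Klf1 at 1.14 (adjusted p = 0.0407), Mitf at 0.52 (0.0108) and Zfpm1 at -0.19 (0.0172). The share of all tested genes at that setting is not given, so this count is not to be read against 26.3%.

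Adding the fusion to receptor cells (CSF3R_FIRST against CSF3R_ONLY) changed 8 of the 9, 5 up and 3 down, against 44.9% of all tested genes (22.3% higher and 22.6% lower). Gata1 rose 3.93-fold (log2 1.98 ± 0.12, adjusted p = 1.89e-09), Gata2 2.88-fold (1.53 ± 0.08, adjusted p = 6.03e-10) and Tal1 by 1.53 on the log2 scale. Zfpm1 rose 1.76-fold (0.82 ± 0.09, adjusted p = 1.09e-06) and Mitf 1.78-fold (0.83 ± 0.21, adjusted p = 0.00464). Lmo2 (-1.36), Nfe2 (-0.50) and Klf1 (-0.98, adjusted p = 0.0218) fell. The Klf1 call was lost without CSF3R_FIRST replicate 1 (adjusted p = 0.0603), CSF3R_FIRST replicate 2 (0.101) or CSF3R_ONLY replicate 1 (0.0845).

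If the 2 alleles acted independently on the log2 scale, the change with both would be the sum of the single changes. For Gfi1b that sum was 8.36, against 3.65 with the fusion first and 3.44 with the receptor first. For Gata1 it was 6.96, against 4.25 and 5.32, and for Gata2 3.99, against 3.16 and 3.40. A sum of log2 changes is a product of folds, so a change below it can still be a larger rise in CPM, as for Gata2. With the fusion first, 6 of the 9 members passed the test as below the sum (Gfi1b, Gata1, Gata2, Tal1, Lmo2 and Zfpm1) and none as above it. Of all tested genes 15.8% passed (6.42% above and 9.42% below). With the receptor first, 5 passed as below it (Gfi1b, Gata1, Lmo2, Gata2 and Zfpm1) and none as above, against 22.9% of all genes (10.4% above and 12.5% below). The Klf1 departure with the fusion first was -1.36 ± 0.60 (adjusted p = 0.154), and -1.83 with the 4 libraries low in long transcripts left out (adjusted p = 0.0185). Lmo2 differs from the others in sign: its single changes were small falls and its double changes larger falls.

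**Figure D4:**
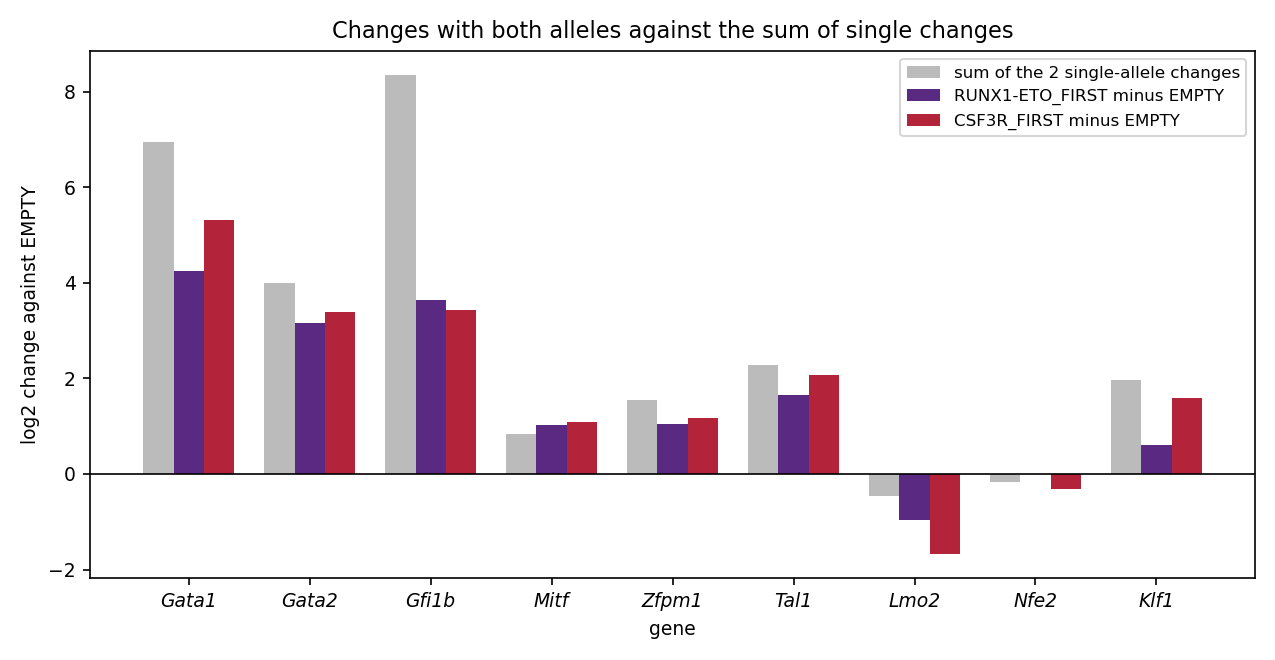
Fitted log2 change against EMPTY of each gene with both alleles, fusion first (purple) and receptor first (red), beside the sum of the 2 single-allele changes (grey). Gfi1b, Gata1 and Gata2 bars with both alleles are shorter than the grey bars, and those of Lmo2 reach further below 0.

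The pathway around these factors was described with lists of related genes. Levels of these genes are means ± SD of 3 libraries. Each count is to be read against the share of all tested genes that passed, which was 39%, 33.1%, 44% and 53.5% for the fusion alone, the receptor alone, the fusion first and the receptor first, and 18.3% between the orders. Of the other GATA, FOG, GFI and SCL family genes, 4 of 10 passed the filter. Lmo4, an LMO2 relative, rose from 168 ± 35 CPM in EMPTY to 491 ± 23 with the fusion alone (log2 1.54, adjusted p = 2.8e-08) and to 476 ± 32 and 423 ± 32 with both alleles. Gfi1, the paralog of Gfi1b, fell in the same groups, from 192 ± 11 CPM to 115 ± 2.0 (log2 -0.74, adjusted p = 1.4e-07), 115 ± 2.6 and 129 ± 4.9. Gata3 was counted in every RUNX1-ETO_ONLY library (22 to 35 counts) and in no EMPTY library, where 3 counts per library, the limit of detection used here, put it at least 3.15 higher on the log2 scale with the fusion alone.

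Of 14 tested partners of TAL1 and LMO2, 8 rose and 1 fell with the fusion alone, 5 rose and 1 fell with the receptor alone, and in RUNX1-ETO_FIRST cells 6 rose and 1 fell. In CSF3R_FIRST cells 6 rose and 2 fell, a share near the 53.5% of all genes. Their median log2 changes were 0.33, 0.17, 0.17 and 0.16. Id2, an inhibitor of E proteins, held 10.5 ± 1.2 CPM in EMPTY, 37.5 ± 1.4 in CSF3R_ONLY, 63.7 ± 1.4 in RUNX1-ETO_FIRST and 180 ± 11 in CSF3R_FIRST, and between the orders its log2 change was -1.50 (adjusted p = 2.2e-08). Id3 followed the same order at 5.37 ± 0.52 and 11.8 ± 0.66 CPM (log2 -1.13, adjusted p = 5.7e-05). Runx1 rose from 81.5 to 96.4 CPM in EMPTY to 513 to 818 CPM in the 9 fusion libraries, and whether reads of the introduced fusion were counted there was not tested. The counts of partners that rose include Runx1 in every comparison with EMPTY. Between the orders, 4 partners passed (Id2, Id3 and Runx1 lower, Tcf3 higher), and 2 did without CSF3R_FIRST replicate 2 or without RUNX1-ETO_FIRST replicate 2. With the 4 libraries low in long transcripts left out, 8 passed, and more of all tested genes passed there too, as given in the last section.

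Of 18 tested corepressors of GFI1B and FOG1, 3 rose and 1 fell with the fusion alone. In RUNX1-ETO_FIRST cells 4 rose and 2 fell, and in CSF3R_FIRST cells 4 rose and 6 fell. Without RUNX1-ETO_ONLY replicate 1 the first count was 2 in all, and without CSF3R_FIRST replicate 2 the last was 6. With the receptor alone 4 passed, and 1 or 2 without any 1 CSF3R_ONLY library. With the 4 libraries low in long transcripts left out, 9 passed with the fusion alone and 10 with the receptor alone. The share of all genes at that setting is not given. In the fit of all libraries, the share of the list that passed was near or below that of all genes in all 4 comparisons with EMPTY. Kdm1a, which encodes LSD1, rose from 57.8 ± 4.2 to 87.4 ± 3.3 CPM with the fusion alone (log2 0.60, adjusted p = 9.3e-06), and Ctbp2, a corepressor bound by FOG1, fell from 56.7 ± 3.8 to 22.0 ± 1.5 (log2 -1.37, adjusted p = 1.2e-09).

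All 3 relatives of MITF (Tfe3, Tfeb and Tfec) rose with the fusion alone and in both double groups. Tfe3 held 41.2 ± 4.8 CPM in EMPTY, 70.5 ± 3.4 with the fusion, 71.4 ± 2.1 with the receptor, and 91.1 ± 5.5 and 94.7 ± 5.6 with both alleles, fusion first and receptor first. Tfec fell with the receptor alone, from 33.1 ± 3.0 to 12.4 ± 1.4 CPM (log2 -1.42, adjusted p = 9.2e-09), and was highest in CSF3R_FIRST, at 96.7 ± 3.8 CPM. Among 6 tested small MAF, BACH and NFE2-related genes, 1 fell with the fusion alone (0 without replicate 1 or 3 of EMPTY or replicate 1 or 2 of RUNX1-ETO_ONLY). With the receptor alone 2 rose (1 without CSF3R_ONLY replicate 2 or 3), with the fusion first 2 rose (1 without EMPTY replicate 2 or RUNX1-ETO_FIRST replicate 2, and 0 without RUNX1-ETO_FIRST replicate 3), and with the receptor first 2 rose. Each share was near or below that of all genes.

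Of 8 tested KLF, SP and globin-switching factors, 5 rose and 1 fell with the receptor alone, while 1 rose and 3 fell with the fusion alone. Over all genes 19.9% rose and 13.2% fell with the receptor alone, and 20.8% rose and 18.2% fell with the fusion alone. Bcl11a, the repressor of fetal globin, fell from 13.2 ± 2.7 CPM in EMPTY to 1.39 ± 0.39 with the fusion alone (log2 -3.24, adjusted p = 1.0e-07) and to 1.12 ± 0.45 and 3.01 ± 1.0 with both alleles. Of 11 tested factors of neighbouring myeloid lineages, 2 rose and 6 fell with the fusion alone, and 5 rose and 2 fell with the receptor alone. Cebpe, a factor of granule maturation, fell from 208 ± 48 to 28.1 ± 3.5 CPM with the fusion alone (log2 -2.89, adjusted p = 1.6e-10). Irf8, a monocyte and dendritic cell factor, went from 9.96 ± 0.26 CPM in EMPTY to 23.7 ± 1.3 with the fusion (adjusted p = 9.3e-08) and 0.928 ± 0.25 with the receptor (adjusted p = 6.1e-11), and its log2 change between the orders was 1.28 (adjusted p = 8.1e-07).

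Of the lists of target genes, the largest median changes over EMPTY were those of mast cell and basophil genes, which GATA2, GATA1 and MITF are known to regulate. All 20 were tested. With the fusion alone 18 rose and 1 fell, with the receptor alone 16 rose and 1 fell, with the fusion first 18 rose and 1 fell, and with the receptor first 19 rose and 1 fell. The shares of all genes that rose were 20.8%, 19.9%, 23.7% and 26.8% in that order. The median log2 changes, with genes at 0 counts in a group set to their bound, were 3.65, 3.45, 5.07 and 5.69. Cma1, a chymase, measured 1.79 ± 0.84 CPM in EMPTY, 283 ± 33 in RUNX1-ETO_ONLY, 359 ± 8.1 in CSF3R_ONLY, 946 ± 104 in RUNX1-ETO_FIRST and 3380 ± 337 in CSF3R_FIRST. Tpsb2, a tryptase, measured 1.27 ± 0.52, 435 ± 31, 37.8 ± 0.54, 830 ± 133 and 2321 ± 185 CPM in the same order.

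Between the orders, 17 of the 20 mast cell and basophil genes were lower with the fusion first and 1 was higher, against 11.1% and 7.22% of all genes, at a median log2 difference of -0.90. Cma1 was 1.84 lower on the log2 scale (adjusted p = 6.2e-07), and Fcer1a, a chain of the IgE receptor, was 1.64 lower (32.9 ± 2.4 against 103 ± 15 CPM, adjusted p = 7.8e-07). Fcer1a was at 0 in all EMPTY libraries and at 0.448 ± 0.066 CPM with the fusion alone, where Tpsb2 was already high. Gzmb showed the opposite single-allele pattern to Tpsb2, at 0.119 ± 0.11 CPM with the fusion alone and 181 ± 3.5 with the receptor alone.

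Megakaryocyte and platelet genes moved in part. Of 15 tested, 8 rose and 3 fell with the fusion alone and 7 rose and 1 fell with the receptor alone, against 20.8% and 18.2%, and 19.9% and 13.2%, of all genes. In RUNX1-ETO_FIRST cells 9 rose and 4 fell, and in CSF3R_FIRST cells 9 rose and 3 fell, at medians of 1.10, 0.22, 1.31 and 1.87 with bounds. Gp1ba, a subunit of the von Willebrand factor receptor, went from 1.31 ± 0.14 CPM in EMPTY to 28.8 ± 1.8 with the fusion (log2 4.45, adjusted p = 5.8e-11), 13.7 ± 2.8 with the receptor, and 39.0 ± 7.4 and 73.4 ± 6.8 with both. Nrgn fell in every comparison with EMPTY, from 80.2 ± 22 CPM to 2.06 ± 0.58 in CSF3R_FIRST.

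Erythroid target genes were mostly near 0. Of 32 in the table, 19 passed the filter, of which 5 rose and 4 fell with the fusion alone and 9 rose and 2 fell with the receptor alone. In RUNX1-ETO_FIRST cells 6 rose and 3 fell, and in CSF3R_FIRST cells 8 rose and 4 fell. Over all genes 39%, 33.1%, 44% and 53.5% passed in the same order, so the erythroid counts with the fusion alone and the fusion first were near the background. Epor, the erythropoietin receptor and a GATA1 target, rose from 0.784 ± 0.27 CPM in EMPTY to 3.08 ± 0.29 and 2.34 ± 0.63 with the single alleles and to 5.59 ± 0.72 and 10.1 ± 1.4 with both. Car2 rose with the fusion alone to 53.5 ± 3.5 CPM from 17.5 ± 0.47 (log2 1.61, adjusted p = 6.5e-10) and stood at 20.2 ± 0.70 and 21.8 ± 1.8 with both. Hba-a1, an alpha globin gene, reached 1.51 ± 0.87 CPM in CSF3R_ONLY. The tested globin genes did not move together. Hba-a1 and Hbb-bs rose with the receptor alone (log2 5.08 and 6.32), where Hbb-bt did not pass (0.95). Hbb-bt rose with the fusion first (2.23) and the receptor first (2.98), and Hba-a1 also rose with the receptor first (3.80). A link of these genes to the Klf1 level was not tested. Summed over 8 erythroid markers, libraries held 0.881 to 16.0 CPM in all.

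**Figure D5:**
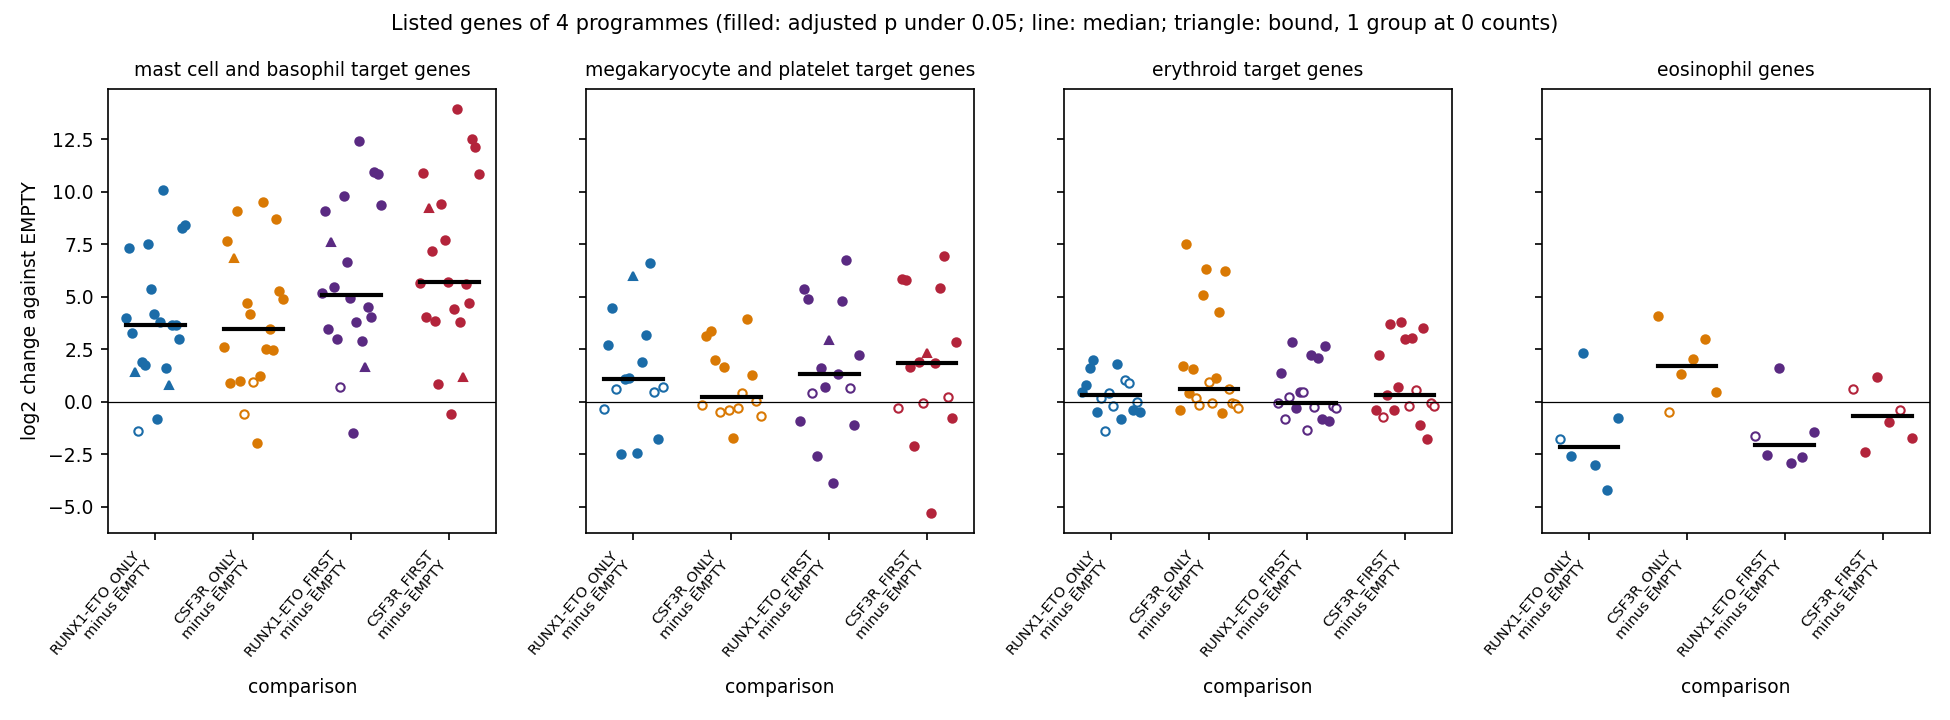
Log2 change against EMPTY of each tested gene of 4 lists in the 4 comparisons, filled where the adjusted p was under 0.05, with the list median as a line and triangles for genes at 0 counts in 1 group, drawn at their bound. Mast cell and basophil medians lie at 3.65, 3.45, 5.07 and 5.69, and erythroid medians between -0.03 and 0.60.

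Of 6 tested eosinophil genes, 1 rose and 4 fell with the fusion alone (20.8% and 18.2% of all genes), and 5 rose and none fell with the receptor alone (19.9% and 13.2%). Prg2, a major granule protein, measured 23.8 ± 6.9 CPM in EMPTY, 2.97 ± 0.67 with the fusion (log2 -2.99, adjusted p = 9.4e-09), 98.5 ± 1.6 with the receptor (2.05, adjusted p = 9.7e-08), 3.13 ± 0.47 with the fusion first and 12.1 ± 1.9 with the receptor first. Between the orders it was 1.95 lower on the log2 scale with the fusion first (adjusted p = 1.2e-05).

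Summed markers of several cell types differed between the groups. Mast cell markers (Cpa3, Cma1, Tpsb2, Kit, Fcer1a, Ms4a2) summed to 1163 to 1637 CPM in EMPTY, 10042 to 11058 in RUNX1-ETO_ONLY, 2372 to 2455 in CSF3R_ONLY, 11828 to 14904 with the fusion first and 20965 to 25724 with the receptor first, with 6 of 6 counted in every library outside EMPTY and Fcer1a at 0 in it. Kit, the stem cell factor receptor and 1 of these 6, fell in all 4 comparisons with EMPTY (log2 -0.83, -1.94, -1.48 and -0.60, adjusted p at most 9.5e-06), from 331 ± 18 CPM to 86.2 ± 7.4 in CSF3R_ONLY and 219 ± 16 in CSF3R_FIRST, and was named after its values were seen. Basophil markers rose from 124 to 183 CPM in EMPTY to 3005 to 3530 in CSF3R_FIRST. Granulocyte progenitor markers (Mpo, Elane, Prtn3, Ctsg, Ms4a3) fell from 49546 to 57521 CPM in EMPTY to between 16845 and 19122 CPM in both double groups. Mature neutrophil markers were highest in CSF3R_ONLY, at 4227 to 4541 CPM against 454 to 697 in EMPTY. Eosinophil markers summed to 130 to 144 CPM in EMPTY, 279 to 290 in CSF3R_ONLY and 44.1 to 74.8 in the fusion groups. The part of a shift in cell types in the members' changes was not tested.

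Over the 15 libraries, the genes most like each member in log2 CPM (prior count 2) were searched among 8577 genes. For Gata1 they were Ms4a2, a chain of the IgE receptor (Pearson r = 0.996), Mcpt4 (0.996) and Cma1 (0.995), both mast cell chymases. For Gata2 they included Padi2 (r = 0.996) and Tle1 (0.994), and for Tal1 Rab37, Mylip and Mob3c (0.992 to 0.994). Those for Zfpm1 were Slc41a3, Ccdc85c and Por (0.983 to 0.985), for Lmo2 Trip13, Uhrf1 and Slco3a1 (0.973 to 0.980), for Mitf Tmem123, Usp25 and Osbpl8 (0.954 to 0.973), for Gfi1b Elac1, Gcnt2 and Homer2 (0.957 to 0.967) and for Klf1 Rit1, Rab24 and S1pr4 (0.952 to 0.962). Nfe2 had the loosest match, Gcat at 0.884. Gata1 and Gata2 correlated at 0.970 with each other and Gata1 with Gfi1b at 0.825. These correlations describe 5 group levels and 15 libraries that share their scaling.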

How the data were processed

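The deposited table held raw read counts per gene for 15 libraries. Per the submitters' processing notes, Trimmomatic, STAR, DESeq2 and mm10 were used, with no versions; the sources used here give no counter, annotation or strand setting. The 1 entry that named no gene (0.0179% to 0.0305% of counts) was left out. Library totals of 17007437 to 18178292 counts set the precision.

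Counts of all 15 libraries were fitted together by the robust quasi-likelihood F test of edgeR 4.0.16 in R 4.3.3, with TMM scaling, its default expression filter (13123 genes), 5 group means and 10 residual degrees of freedom. Adjusted p-values (Benjamini-Hochberg over all tested genes, two-sided, threshold 0.05) cover 7 pair comparisons and 2 departures from additivity. SE are on the log2 scale. The fit was also run on simulated counts in which only some well-counted genes were changed, in RUNX1-ETO_FIRST alone, which does not test the choice of scaling. The ratio of Gata1 to Gata2 counts was compared by exact permutation. Genes at 0 counts in a group were set against 3 counts per library, which covers counting error only.

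Alternatives were size factors of DESeq2, library totals, other filters, DESeq2 1.42.0, limma-voom 3.58.1, a non-robust fit, fewer groups, a replicate block, and leaving libraries out. Deviations of same-numbered libraries correlated in RUNX1-ETO_ONLY with EMPTY (r of 0.283 to 0.455) and CSF3R_FIRST with EMPTY (0.136 to 0.370). They did not do so throughout in any of the other 5 pairs of groups compared. In EMPTY, RUNX1-ETO_ONLY and CSF3R_FIRST, replicate 3 was the library low in long transcripts, so pairing and that bias cannot be told apart. The members and the 11 gene lists were chosen with earlier results of these data known. From each list the genes named were the 3 with the largest called changes between the orders, the 3 with the fusion alone, and up to 2 abundant genes called in neither, from which the text takes examples. Positions and exon lengths are from GENCODE M21, and promoters from RefSeq on GRCm38.p6. Values of 2 genes that the rule named are not reported here.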

Additional observations from a re-analysis of the deposited data

Results flagged for a closer look

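The 11 values below were picked out because the effect of one allele on a member differed between cells with and without the other allele, by the test of the difference itself, given as the departure of the double change from the sum of the single changes in log2 units. With the fusion first the departures were -4.71 for Gfi1b (adjusted p = 1.13e-10), -2.70 for Gata1 (8.87e-08), -0.83 for Gata2 (0.000125), -0.63 for Tal1 (0.000265), -0.52 for Lmo2 (0.0223) and -0.50 for Zfpm1 (0.00954), all by edgeR. With the receptor first they were -4.92 for Gfi1b (adjusted p = 2.51e-10), -1.64 for Gata1 (1.37e-05), -1.22 for Lmo2 (2.16e-05), -0.59 for Gata2 (0.00163) and -0.37 for Zfpm1 (0.0370). For Gfi1b, Gata1, Gata2, Tal1 and Zfpm1 both single log2 changes were rises and the double log2 change was a smaller rise than their sum. As rises in mean CPM, Gfi1b and Zfpm1 lay below the sum in both orders, and Gata1 and Tal1 with the fusion first only. Gata2 lay above it in both orders. For Lmo2 the double change was a larger fall than the sum.

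Both contrasts use the same EMPTY and single-allele libraries. The Lmo2 departure with the fusion first was no longer called without CSF3R_ONLY replicate 1 or 2, EMPTY replicate 1 or 2, RUNX1-ETO_FIRST replicate 2 or 3, or RUNX1-ETO_ONLY replicate 3 (adjusted p 0.0513 to 0.0696). The Zfpm1 departure with the receptor first was no longer called without CSF3R_FIRST replicate 3 (-0.25, adjusted p = 0.176), any 1 CSF3R_ONLY library, EMPTY replicate 1 or 2, or RUNX1-ETO_ONLY replicate 1 or 2 (adjusted p 0.0575 to 0.0880). It was also lost with DESeq2 size factors (adjusted p = 0.0548), no filter (0.138), only the groups compared (0.0778) and the stricter filter (0.0711).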

How the results depend on the processing

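In the counts of members called, the order comparison gave 4 in the fit reported, 7 by limma-voom with sample weights and 8 once the 4 length-biased libraries were left out, and RUNX1-ETO_FIRST against RUNX1-ETO_ONLY gave 8 without those libraries against 5. Over all genes, the order comparison called 1384 at an adjusted p of 0.01, 4269 by limma-voom and 4449 without the 4 libraries, against 2407. RUNX1-ETO_ONLY against EMPTY called 3388 with only its own groups in the fit, against 5117, and RUNX1-ETO_FIRST against RUNX1-ETO_ONLY 2236 at 0.01, against 3454. The additivity test called 1254 at 0.01, 3490 by limma-voom and 3466 without the 4 libraries with the fusion first, against 2078, and 1830 at 0.01 with the receptor first, against 3004. Of the member values, 11 changed sign, all near 0 and not called: Mitf with the receptor alone (-0.0024 without the 4 libraries, and -0.010 to 0.45 with single libraries left out), Mitf between the orders (0.033 with library totals alone, and -0.17 to 0.063 with single libraries left out), the Mitf departure with the fusion first (-0.0071 to 0.44 with single libraries left out) and Nfe2 with the fusion first (0.0052 by DESeq2, 0.0053 with its size factors, 0.0016 with only its own groups, and -0.056 to 0.070 with single libraries left out). The cause was not tested. Library totals alone moved the median of all genes to -0.19 with the receptor first, 0.10 between the orders, -0.14 for RUNX1-ETO_FIRST against RUNX1-ETO_ONLY and -0.20 for the receptor-first departure. They took the share of higher calls from 50.1% to 37.9%, from 39.4% to 62.0%, from 60.7% to 38.2% and from 45.5% to 26.9% there, from 60.2% to 49.1% with the receptor alone, and from 49.6% to 40.9% for CSF3R_FIRST against CSF3R_ONLY. Of the 7 pairs of groups compared, same-numbered libraries deviated together in RUNX1-ETO_ONLY with EMPTY and CSF3R_FIRST with EMPTY, groups in which replicate 3 was low in long transcripts. Of 15 libraries, 8 correlated best with their own number. Library totals alone also called Gfi1b between the orders (0.31), Tal1 and Zfpm1 in RUNX1-ETO_FIRST against RUNX1-ETO_ONLY (-0.21 and -0.25) and the receptor-first departures of Nfe2 and Tal1 (-0.31 and -0.38). With the replicate block, the only member call that changed was Gata2 between the orders (-0.23, adjusted p = 0.0493). Depth limits Klf1 (6 to 105 counts) and Mitf (43 to 170 counts).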
